A study of Mus musculus with 16 samples.

Results

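The glutathione transferases described here are 9 of the 13982 genes in the deposited expression table, taken by gene symbol: Gstp1, Gstp2, Gstm1, Gstm5, Gstt1, Gsto1, Gsta4, Mgst1 and Mgst3. The members were selected on the FPKM of these same libraries in the 4 groups, since the list was drawn up with earlier results in view, the Gstp2 values after exosome injection among them. Its tests therefore describe these libraries and are not independent evidence. RNA was sequenced from cells that were stained for CD45 and CD11b, sorted from cortex and labelled as microglia, in 16 libraries of C57BL/6 mice. The 4 Sham libraries came from mice without occlusion, and the 4 MCAO libraries from mice after middle cerebral artery occlusion, a model of ischemic stroke. The 4 MCAO+Ctrl-exos and the 4 MCAO+AS-exos libraries came from occluded mice that also received 150 µg of exosomes, small vesicles purified from plasma, through a tail vein at intervals of 3 days beginning with the surgery. All exosome donors were Apoe knockout mice, some of them fed western diet for 12 weeks to produce atherosclerosis and others normal diet, and the labels leave unsaid which diet stands behind Ctrl and which behind AS. The time from surgery to sorting, and whether each library is a separate mouse, are not stated there either, so p-values measure the spread between libraries, which may be partly technical.

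Glutathione transferases join the tripeptide glutathione to reactive, electrophilic molecules, among them products of lipid peroxidation, and so prepare them for export and breakdown. The soluble enzymes fall into classes named pi (Gstp1, Gstp2), mu (Gstm1, Gstm5), theta (Gstt1), omega (Gsto1) and alpha (Gsta4), and a separate membrane-bound family holds Mgst1 and Mgst3. Several of these genes are known targets of NRF2, a transcription factor that binds antioxidant response elements under oxidative stress, and the rat pi-class gene is a classical target of AP-1 factors.

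Promoters are shown for the copies Gstp1 and Gstp2, whose measured values diverged, and for Mgst1, which had the largest difference from Sham among the 9 genes. Each is the 250 bases before the transcription start in RefSeq, build GRCm38.p6, printed 5′ to 3′ on the strand of the gene, and the capitals mark a motif.
Gstp1 (chr19:4037913-4038162, minus strand): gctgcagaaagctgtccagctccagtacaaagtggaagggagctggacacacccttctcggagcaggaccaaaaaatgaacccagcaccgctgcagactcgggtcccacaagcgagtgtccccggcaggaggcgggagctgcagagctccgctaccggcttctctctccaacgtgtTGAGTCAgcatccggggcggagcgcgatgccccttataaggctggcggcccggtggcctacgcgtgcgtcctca
Gstp2 (chr19:4042222-4042471, minus strand): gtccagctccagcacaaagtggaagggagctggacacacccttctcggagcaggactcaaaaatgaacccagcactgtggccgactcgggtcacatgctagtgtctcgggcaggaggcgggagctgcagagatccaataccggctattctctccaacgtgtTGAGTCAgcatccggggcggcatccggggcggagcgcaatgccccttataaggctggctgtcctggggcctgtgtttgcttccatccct
Mgst1 (chr6:138140277-138140526, plus strand): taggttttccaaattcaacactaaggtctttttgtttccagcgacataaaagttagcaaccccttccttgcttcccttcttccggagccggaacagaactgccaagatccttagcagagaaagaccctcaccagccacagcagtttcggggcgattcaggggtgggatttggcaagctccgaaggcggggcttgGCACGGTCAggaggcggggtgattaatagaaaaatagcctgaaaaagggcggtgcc
In Gstp1 and Gstp2 the capitals mark TGANTCA, the core that AP-1 factors bind, which began 74 and 89 bases before the start. In Mgst1 they mark TGACNNNGC, the antioxidant response element core, lying on the opposite strand and so read as GCACGGTCA. The search covered both strands. RefSeq windows were matched for 8 of the 9 genes, all but Gsta4. There were 10 windows, since Mgst1 and Gstm1 each had a second. The second window of Mgst1, at chr6:138141337-138141586, is not printed, and neither second window held a motif. For that window and the window of Gstt1, the bases after the start were not found in the longest transcript. TGANTCA was found in 3 of them (Gstp1, Gstp2 and Gstm5) and TGACNNNGC in 2 (Mgst1 and Gstm5). In Gstp1 and Gstp2 the marked letters are followed by gc. That stretch differs from TGACNNNGC only in a G for the C, a difference that the search did not allow. Of 32851 mouse promoter windows of this length, 6.75% held TGANTCA, 10.2% held TGACNNNGC and 0.39% held both motifs overlapping each other. A match of letters is a description and no evidence of binding, and a missing match is no evidence against it.

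Aligned over 246 columns, the Gstp1 and Gstp2 promoter windows were 83.7% identical. Their longest protein-coding transcripts were 94.5% identical over 799 columns, and 62.3% of all 50-base stretches of the Gstp1 transcript also occurred in Gstp2. Of the Gstp2 transcript, 72.6% of such stretches occurred in some other gene, Gstp1 or the pseudogene Gstp-ps, and 63.5% of its 100-base stretches did. The read length is not stated in the labels. How fragments were divided between these copies by the authors' estimation cannot be seen in the files, so the values of Gstp1 and Gstp2 are uncertain one by one and are also given as a sum. Gstm1 shared 23.1% of its 50-base stretches with other genes, among them Gstm3 and the pseudogene Gstm2-ps1, and the remaining 6 genes shared none.

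Values are FPKM, fragment numbers divided by transcript length and by library size, a scale on which levels of different genes can be compared. Library totals were 758283 to 983648 FPKM, and sequencing depth is unknown. Differences are log2 fold changes of FPKM + 1, fitted with limma over 10846 genes, those that reached 1 FPKM in 4 or more libraries, and called at a Benjamini-Hochberg adjusted p below 0.05. This scale understates changes of low genes. Of the 9 glutathione transferases, 7 met the minimum and were tested. Gstt1 and Gsta4 did not, and Mgst1 met it only through the occluded groups. Within its group MCAO+AS-exos replicate 4 stood apart. Across genes it correlated with replicates 1 to 3 at 0.905 to 0.921, where those correlated with each other at 0.979 to 0.985. With the MCAO+Ctrl-exos libraries it correlated at 0.921 to 0.931. Its mean correlation with its own group was 0.915. That mean was 0.881 to 0.902 for Sham libraries, 0.905 to 0.920 for MCAO and 0.914 to 0.929 for MCAO+Ctrl-exos. Replicates 1 to 3 were thus more alike than libraries of the other groups were on average. The labelled cell type was checked against marker genes. The summed level of 10 homeostatic microglia genes was 20889.5 to 22855 FPKM in Sham and 980.74 to 1800.1 FPKM in MCAO, with the microglial transcription factor Sall1 at 101.7 ± 8.55 FPKM in Sham and under 1 FPKM in every occluded library (SD, n = 4). The 8 monocyte genes summed to 8.46 to 114 FPKM in Sham and to 1557 to 5429 FPKM over the occluded libraries, the 8 border macrophage genes to 13.8 to 69.7 and 1931 to 5539 FPKM, and 6 measured neutrophil genes to 76.7 to 144 and 1619 to 9685 FPKM. In MCAO the neutrophil sum was mostly S100a8 (3544 ± 2690 FPKM) and S100a9 (1078 ± 949 FPKM). Csf3r had lower means than in Sham (94.4 FPKM) in MCAO (76.2 FPKM), MCAO+Ctrl-exos (60.4 FPKM) and MCAO+AS-exos (65.4 FPKM). Retnlg, Mmp9 and Cxcr2 had higher means in MCAO than in Sham, Retnlg with a library at 0. The part of these cell types in the differences from Sham below was not tested. In sorted bulk RNA a change in the number of cells of a type cannot be told apart from a change in RNA per cell.

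Together the 9 genes summed to 317 ± 108 FPKM in Sham, 702 ± 155 in MCAO, 733 ± 113 in MCAO+Ctrl-exos and 1027 ± 174 in MCAO+AS-exos (mean ± SD, n = 4). The make-up of that sum differed. Gstp1 and Gstp2 made up 64.7 ± 15.3% of it in Sham and 35.4 ± 8.66% in MCAO, while Mgst1 went from 0.0516 ± 0.0471% to 26.0 ± 7.17% and Gsto1 from 10.0 ± 5.51% to 26.6 ± 3.21%. In the mean of the Sham libraries most of the RNA was thus of the pi class, and in MCAO Gstp1, Gsto1 and Mgst1 had overlapping levels.

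**Figure D1:**
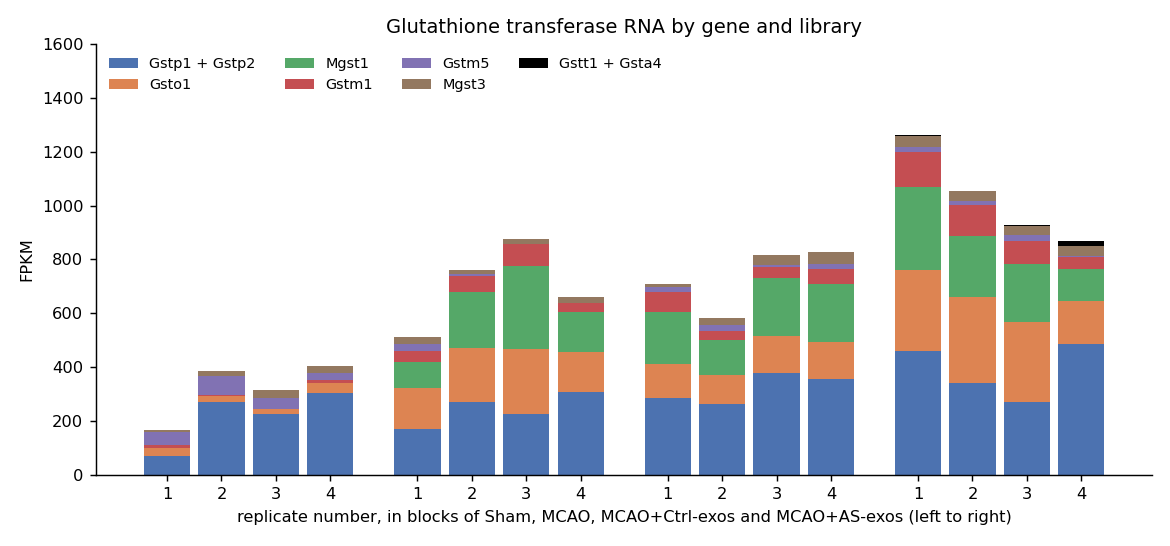
Stacked bars give the FPKM of the glutathione transferases in each of 16 libraries, with Gstp1 and Gstp2 summed and Sham in the first block from the left, MCAO in the next, then MCAO+Ctrl-exos and last MCAO+AS-exos. Mgst1 is too low to see in the 4 Sham bars and is a large part of every other bar.

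MCAO was compared with Sham for the effect of occlusion on the sorted cells. Of the 7 tested genes, 4 were higher (Mgst1, Gstm1, Gsto1 and Gstp2), 1 was lower (Gstm5) and 2 did not pass (Gstp1 and Mgst3). Over all tested genes 39.2% were called, 24.5% higher and 14.8% lower, so having called members is no particular feature of this family. The 4 and 4 values did not overlap for 4 of the 7 genes, beside 33.8% of all genes. Over all tested genes the log2 fold change had a median of 0.25, and quantile normalization brought it to -0.03. The split of calls turned with it: 2084 genes were higher and 2164 lower under quantile normalization, and 1938 and 2064 with length and GC trends removed. The 5 calls and their directions held under quantile normalization and under removal of length and GC trends.

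Mgst1 encodes an enzyme of the endoplasmic reticulum and outer mitochondrial membranes that acts on lipid hydroperoxides as well as on electrophiles. In Sham replicates 1 to 4 it stood at 0.08, 0.17, 0 and 0.46 FPKM, and in MCAO at 94.9, 209, 308 and 149 FPKM. All Sham values lay below 1 FPKM, and the lowest MCAO library was far above all of them. The fitted log2 fold change was 7.23 ± 0.34 (SE). It was 7.32 ± 0.34 in MCAO+Ctrl-exos and 7.47 ± 0.34 in MCAO+AS-exos, both against the same Sham libraries. Mgst1 was among the tested genes only through the occluded groups, where it was high, so these differences are given as a description. By a fixed measure of likeness, the mean absolute difference of centred log2 profiles over the 16 libraries, the genes most like Mgst1 were Anxa1 (0.31), the gene of the phospholipid-binding annexin A1, Cyp4f18 (0.33), a cytochrome P450 gene, and Plin2 (0.36), which encodes a lipid droplet coat protein. The mean absolute deviation of Mgst1 itself was 2.75.

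Gsto1, the omega-class enzyme, removes glutathione from modified proteins and reduces dehydroascorbate. Its values were 29.6, 22.8, 20.5 and 39.8 FPKM in Sham and 154, 201, 240 and 147 FPKM in MCAO. Every MCAO value was above every Sham value, and the log2 fold change was 2.69 ± 0.27 (adjusted p = 1.30e-07). The genes with the most similar profiles were Akr1a1 (0.28), which encodes an aldehyde reductase, Glrx (0.28), the gene of glutaredoxin, and Atp6v1b2 (0.29), which encodes a subunit of the vacuolar proton pump.

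The mu-class genes went in opposite directions. Gstm1 was at 10.98, 3.51, 0.57 and 10.8 FPKM in Sham and at 41.1, 57.5, 81.7 and 32.2 FPKM in MCAO, a log2 fold change of 3.18 ± 0.53 (adjusted p = 8.67e-05) without overlap. Gstm5 was at 49.9, 69.2, 40.0 and 23.9 FPKM in Sham and at 24.2, 9.18, 0.14 and 1.93 FPKM in MCAO. It fell by 3.01 ± 0.72 on the log2 scale (adjusted p = 0.00258), although MCAO replicate 1 slightly exceeded the lowest Sham library. Gstm5 was thus the more abundant mu-class gene in every Sham library, and Gstm1 in every MCAO library. Of 5 measured astrocyte genes, Slc1a3, a glutamate transporter gene, fell with Gstm5, from 76.2 ± 22.6 to 0.405 ± 0.313 FPKM. The others did not go with it: all 4 were under 1 FPKM in every Sham library, and Gja1, a connexin gene, rose from at most 0.02 FPKM in Sham to 7.47 ± 3.69 FPKM in MCAO. The summed level of the 5 was 57.8 to 107 FPKM in Sham and 3.73 to 14.7 FPKM in MCAO, and the part of astrocytes in the Gstm5 difference was not tested. The profile most like that of Gstm1 was that of Gsto1 (0.40), followed by Slc48a1 (0.41), a heme transporter gene, and Il2rg (0.41), the common cytokine receptor chain. For Gstm5 the nearest genes, Pqbp1 (0.61), Ctso (0.65) and Tmem141 (0.66), had larger differences. The mean absolute deviation was 1.29 for Gstm1 and 1.16 for Gstm5.

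Gstp1 encodes the abundant pi-class enzyme, which also binds signalling kinases. It was at 69.6, 269, 223 and 293 FPKM in Sham and at 160, 255, 201 and 290 FPKM in MCAO, so the groups overlapped throughout and the log2 fold change of 0.24 ± 0.35 did not pass (95% interval -0.50 to 0.97, adjusted p = 0.620). Without Sham replicate 1, the lowest library, the difference was -0.24. Mgst3, which encodes a membrane enzyme with transferase and peroxidase activity, was at 5.43, 19.1, 28.3 and 25.4 FPKM in Sham and 27.0, 15.5, 17.7 and 19.5 FPKM in MCAO. Its difference of 0.21 ± 0.44 did not pass either (95% interval -0.70 to 1.12, adjusted p = 0.729) and was -0.28 without the same Sham library.

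**Figure D2:**
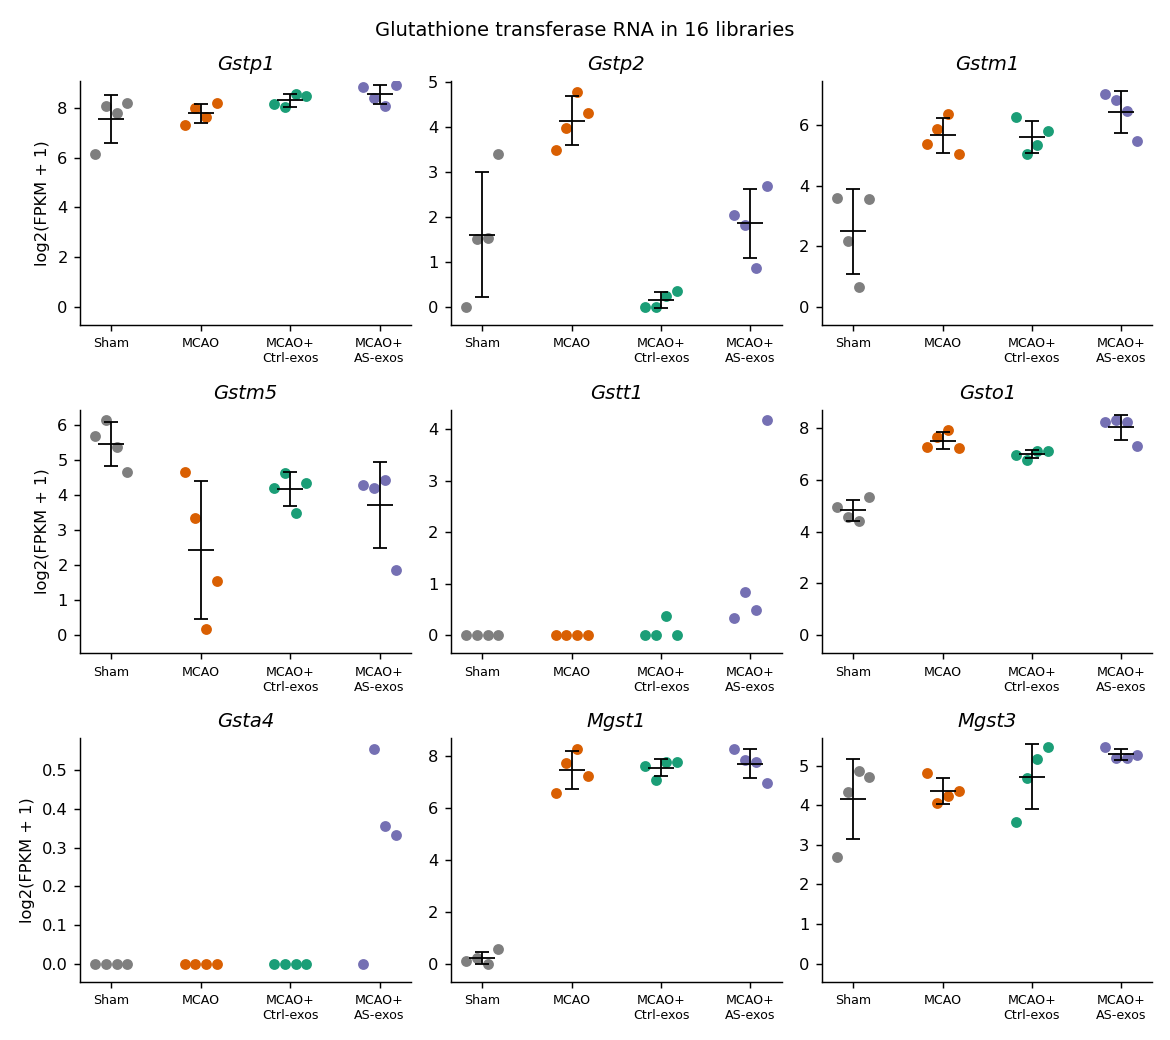
Points give log2(FPKM + 1) of each glutathione transferase in each library by group, and bars give the mean ± SD of 4 libraries for the 7 tested genes; the vertical scale differs between panels. Mgst1, Gsto1 and Gstm1 are above Sham in every occluded library, and Gstp2 is highest in the 4 MCAO libraries.

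Gstp2, the less abundant pi-class copy, was at 0, 1.85, 1.87 and 9.55 FPKM in Sham and at 10.3, 14.8, 26.6 and 18.8 FPKM in MCAO. The groups came close to each other without overlapping, and the log2 fold change was 2.54 ± 0.55 (adjusted p = 0.00116). In MCAO+Ctrl-exos the values were 0, 0, 0.18 and 0.27 FPKM, and in MCAO+AS-exos 3.15, 2.55, 0.81 and 5.48 FPKM. The MCAO libraries were the highest of all 16, and every MCAO+AS-exos library lay between the MCAO and the MCAO+Ctrl-exos libraries.

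The sum of Gstp1 and Gstp2 did not follow Gstp2. Their longest transcripts have similar lengths, 821 and 797 bases, so the sum depends little on how fragments were divided between them. Of the 50-base stretches, 45.6% of those of Gstp1 and 55.3% of those of Gstp2 also occurred in the pseudogene Gstp-ps. The sum may still depend on the division of fragments with that pseudogene. It was 217 ± 103 FPKM in Sham, 244 ± 59.6 in MCAO, 321 ± 55.5 in MCAO+Ctrl-exos and 390 ± 101 in MCAO+AS-exos (mean ± SD, n = 4). MCAO and Sham differed by 0.33 ± 0.35 on the log2 scale (adjusted p = 0.485), and MCAO+Ctrl-exos and MCAO by 0.41 ± 0.35 (adjusted p = 0.700), both without passing. Gstp2 took 0 to 3.16% of the sum in Sham, 5.49 to 11.7% in MCAO, 0 to 0.0758% in MCAO+Ctrl-exos and 0.30 to 1.12% in MCAO+AS-exos. The Gstp2 differences therefore concern a small share of pi-class RNA, and whether that share reflects transcripts of Gstp2 or the division of shared fragments was not tested.

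**Figure D3:**
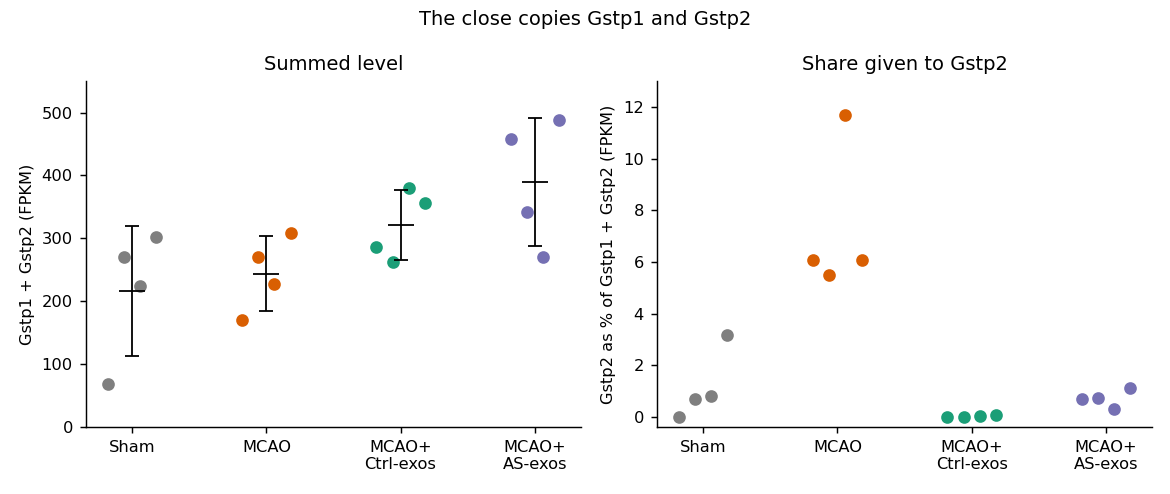
The left panel gives the summed FPKM of Gstp1 and Gstp2 per library with mean ± SD of 4 libraries, and the right panel the percentage of that sum assigned to Gstp2. The summed levels of the groups overlap, while the Gstp2 share is highest in the 4 MCAO libraries.

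MCAO+Ctrl-exos and MCAO differ by the injection of exosomes coded Ctrl. Gstp2 was the single member called, lower by a log2 fold change of -4.00 ± 0.55, where 0.0738% of all genes were called, 0.0461% higher and 0.0277% lower (8 genes, and 2 to 89 on leaving out single libraries, fewest without MCAO+Ctrl-exos replicate 4 and most without its replicate 1); this difference was known when the genes were chosen and is given as a description. The values of 2 of the 7 tested genes did not overlap, Gstp2 and Gsto1, beside 5.98% of all genes. Gsto1 was at 125, 108, 137 and 138 FPKM in MCAO+Ctrl-exos, under every MCAO library, but its difference of -0.52 ± 0.27 did not pass (adjusted p = 0.490). Mgst1, at 192, 132, 214 and 215 FPKM, and Gstm1, at 76.8, 32.1, 40.3 and 54.8 FPKM, lay within or near the MCAO range, with log2 differences of 0.09 ± 0.34 (95% interval -0.62 to 0.79) and -0.05 ± 0.53 (-1.15 to 1.06). Gstm5 was at 17.3, 23.6, 10.2 and 19.3 FPKM, and its difference of 1.72 ± 0.72 did not pass (adjusted p = 0.385). Gstp1 was at 286, 263, 379 and 356 FPKM and Mgst3 at 10.9, 24.9, 34.8 and 43.2 FPKM, both overlapping with MCAO. Their differences of 0.52 ± 0.35 (adjusted p = 0.605) and 0.36 ± 0.44 (adjusted p = 0.789) did not pass.

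The comparison of MCAO+AS-exos with MCAO+Ctrl-exos contrasts the exosome preparations. No member was called by limma, beside 0.286% of all genes (0.157% higher and 0.129% lower), and 2 of the 7 tested members, Gsto1 and Gstp2, had an unadjusted p below 0.05, beside 19.6% of all genes. The 31 calls over all genes ranged from 1 without MCAO+AS-exos replicate 2 or 3 to 1296 without replicate 4. The same pair did not overlap between the groups, beside 10.2% of all genes. Gsto1 was at 304, 320, 297 and 156 FPKM in MCAO+AS-exos, all above MCAO+Ctrl-exos, with a log2 fold change of 1.03 ± 0.27 (adjusted p = 0.0711). MCAO+AS-exos replicate 4 was well under the other libraries of its group. Without it the difference was 1.28 and passed (adjusted p = 0.00306). That fit rests on replicates 1 to 3 of this group, whose close correlation is given above. In MCAO+AS-exos replicate 4 the marker sums of monocytes (1787 FPKM, against 3927 to 5429 FPKM in replicates 1 to 3), neutrophils (3359 FPKM against 5827 to 7114 FPKM) and homeostatic microglia (1133 FPKM against 1428 to 1781 FPKM) were also the lowest of the group. The monocyte difference was that of Chil3, at 652 FPKM in replicate 4 and 2948 to 4235 FPKM in the others; the other 7 monocyte genes summed to 1136 FPKM in replicate 4, within the 809 to 1194 FPKM of the others. The neutrophil sums of this group were mostly S100a8 (4269 ± 1237 FPKM) and S100a9 (1336 ± 389 FPKM). The part of these cell types in the Gsto1 level was not tested. Gstp2 differed by 1.71 ± 0.55 (adjusted p = 0.103).

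The other tested genes did not differ detectably between the exosome groups. Gstm1 reached 131, 113, 87.2 and 43.7 FPKM in MCAO+AS-exos, with a difference of 0.83 ± 0.53 (95% interval -0.28 to 1.94, adjusted p = 0.396), and Mgst1 was at 305, 226, 215 and 121 FPKM with a difference of 0.16 ± 0.34 (-0.55 to 0.86, adjusted p = 0.842). In both genes the lowest value was that of replicate 4. Gstm5, at 18.5, 17.5, 20.6 and 2.65 FPKM, differed by -0.46 ± 0.72 (adjusted p = 0.770). Gstp1 differed by 0.25 ± 0.35 (adjusted p = 0.743) and Mgst3 by 0.56 ± 0.44 (adjusted p = 0.499).

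**Figure D4:**
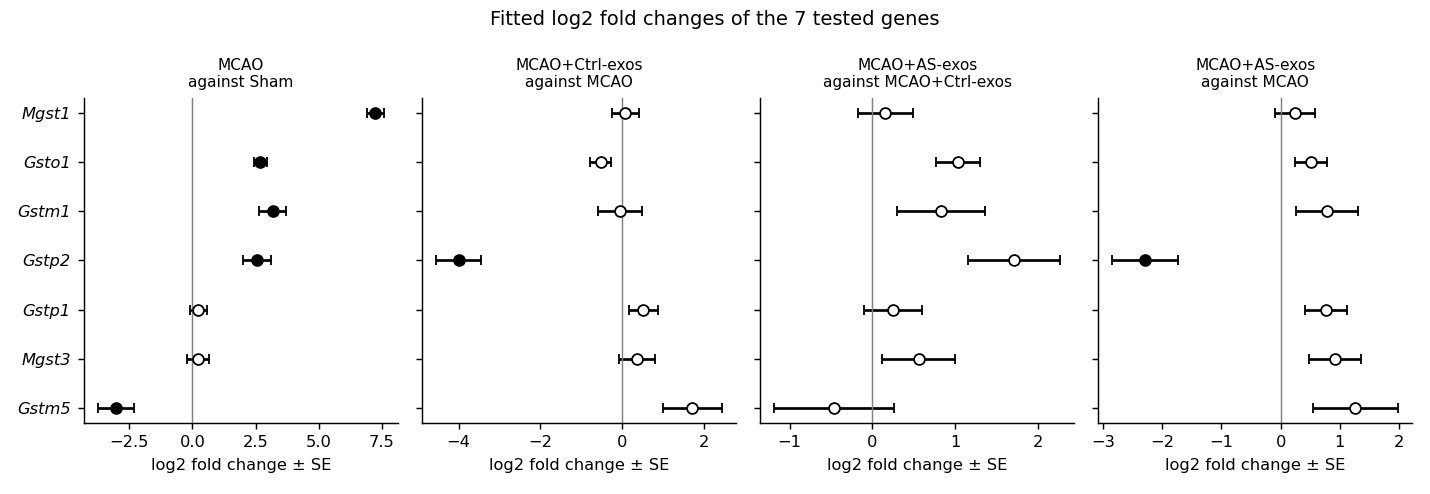
Points give fitted log2 fold changes with their SE for the 7 tested glutathione transferases in 4 comparisons, filled where the adjusted p was below 0.05; the horizontal scale differs between panels. Gstp2 is the single filled point in the comparisons of MCAO+Ctrl-exos and MCAO+AS-exos with MCAO.

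Against MCAO, which is also the reference for MCAO+Ctrl-exos above, MCAO+AS-exos had 1 called member, beside 6.14% of all genes (1.06% higher and 5.08% lower). That background of 666 genes itself ranged from 0 genes without MCAO+AS-exos replicate 2 or 3 to 2024 without replicate 4, and was 3955 with library weights. Gstp2 fell by 2.29 ± 0.55 on the log2 scale (adjusted p = 0.0315). This call was lost when any of the 4 MCAO libraries or any of MCAO+AS-exos replicates 1 to 3 was left out, where the log2 fold change was -2.50 to -1.95. Values did not overlap for 2 of the 7 tested genes, Gstp2 and Mgst3, beside 14.4% of all genes. Mgst3 was at 43.2, 35.5, 35.7 and 37.7 FPKM in MCAO+AS-exos, above every MCAO library, yet its difference of 0.92 ± 0.44 did not pass (adjusted p = 0.190). Gsto1 differed by 0.51 ± 0.27 (adjusted p = 0.236), and by 0.75 without MCAO+AS-exos replicate 4, where it passed (adjusted p = 0.0390). That fit too rests on the closely correlated replicates 1 to 3 of MCAO+AS-exos.

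Each exosome group was also set against the same Sham libraries. In MCAO+Ctrl-exos 3 of the 7 tested genes were higher (Mgst1, Gsto1 and Gstm1) and Gstp2 was lower, beside 38.7% of all genes called, 22.1% higher and 16.6% lower. Values did not overlap for 4 of the 7, beside 33.5% of all genes. The Gstp2 groups overlapped, and the call (-1.46 ± 0.55, adjusted p = 0.0427) was lost on leaving out any of 9 single libraries. In MCAO+AS-exos 5 genes were higher and none was lower, beside 39.8% of all genes called, 20.7% higher and 19.1% lower, and values did not overlap for 5 of the 7, beside 36.5% of all genes. The higher genes were Mgst1, Gsto1 (3.20 ± 0.27), Gstm1 (3.96 ± 0.53), Gstp1 (1.003 ± 0.35, adjusted p = 0.0292) and Mgst3 (1.13 ± 0.44, adjusted p = 0.0454). At 455, 340, 269 and 482 FPKM in MCAO+AS-exos, Gstp1 overlapped with Sham. The calls of Gstp1 and Mgst3 rested on single libraries: without Sham replicate 1 the differences were 0.53 and 0.64 and did not pass (adjusted p = 0.112 and 0.190), and the Gstp1 call was also lost without MCAO+AS-exos replicate 1 (0.91) or 4 (0.88), under quantile normalization (0.62) and with length and GC trends removed (0.31). The Mgst3 call was lost in 10 of the 16 fits that left out a library and under 7 processing alternatives, among them quantile normalization (1.04, adjusted p = 0.0692) and removal of length and GC trends (0.71, adjusted p = 0.185). The summed pi-class level differed by 0.996 ± 0.35 (adjusted p = 0.0311), and this call too was lost without Sham replicate 1 (0.52) and without MCAO+AS-exos replicate 1 (0.91) or 4 (0.88).

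Gstt1 and Gsta4 were at or near 0 in nearly all libraries. Gstt1, the theta-class gene, was listed at 0 in all Sham and MCAO libraries, at 0, 0, 0.29 and 0 FPKM in MCAO+Ctrl-exos and at 0.26, 0.78, 0.40 and 17.1 FPKM in MCAO+AS-exos. Gsta4, whose enzyme acts on the lipid peroxidation product hydroxynonenal, was listed at 0 in 13 libraries and at 0.47, 0.28 and 0.26 FPKM in MCAO+AS-exos replicates 2 to 4. The 1 library above 1 FPKM for Gstt1 was MCAO+AS-exos replicate 4. Its 5 measured endothelial and mural genes summed to 55.4 FPKM, against 3.52 to 27.6 FPKM in the other libraries of its group. Of that sum 49.5 FPKM was Ly6c1 alone; the other 4 genes summed to 5.83 FPKM, within the 1.56 to 20.4 FPKM of the others, and Vtn was at 0. The part of these cells in its Gstt1 level was not tested.

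In rank of mean level, Gstp1 was first in all 4 groups. In Sham it was followed by Gstm5 (45.8 ± 18.9 FPKM), Gsto1 (28.2 ± 8.68 FPKM) and Mgst3 (19.5 ± 10.2 FPKM), whose ranges overlapped from neighbour to neighbour. In MCAO the next ranks were Mgst1 (190 ± 91.5 FPKM), Gsto1 (185 ± 43.2 FPKM) and Gstm1 (53.1 ± 21.8 FPKM), and Gstp1, Mgst1 and Gsto1 had overlapping ranges there. In MCAO+Ctrl-exos the order was Mgst1 (188 ± 38.9 FPKM), Gsto1 (127 ± 14.003 FPKM) and Gstm1 (51.0 ± 19.6 FPKM) after Gstp1. In MCAO+AS-exos Gsto1 (269 ± 75.9 FPKM) and Mgst1 (217 ± 75.3 FPKM) stood in the reverse order, with overlapping ranges, before Gstm1 (93.6 ± 37.7 FPKM). In MCAO+Ctrl-exos every Gstp1 value was above every Mgst1 and Gsto1 value.

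The other genes of glutathione metabolism were taken from lists chosen with earlier results known. Of 24 further genes of the transferase family and related membrane enzymes, 14 were in the table and 12 were tested. Between MCAO and Sham 1 rose and 3 fell, with a median log2 fold change of -0.56 beside 0.25 for all genes. Ltc4s, which joins glutathione to a leukotriene, fell from 760 ± 403 to 43.4 ± 26.5 FPKM, and Hpgds, a prostaglandin D synthase of the sigma class, fell from 341 ± 37.0 to 36.8 ± 15.2 FPKM. Alox5ap, which presents arachidonic acid to lipoxygenase, rose from 608 ± 63.6 to 1117 ± 120.1 FPKM (log2 fold change 0.88 ± 0.16). That call was lost under quantile normalization and with length and GC trends removed. Under each of these settings 6 of the 12 genes were lower, beside 2164 and 2064 of all 10846 genes. Ltc4s and Hpgds had higher mean levels in Sham than any of the 9 genes. The other gene that fell was the theta-class Gstt2, from 14.5 ± 5.49 to 6.19 ± 1.87 FPKM. Its call was lost in 2 of the 16 fits that left out a library.

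The counts that follow, between MCAO and Sham, stand beside 24.5% of all genes higher and 14.8% lower. Among genes that make and break down glutathione, 7 of 13 tested rose and 1 fell (median 1.26), with Gclm, the modifier subunit of the rate-limiting ligase, at 46.6 ± 21.8 FPKM after 6.19 ± 0.374 FPKM. Of 14 tested genes of glutathione reduction and redoxins, 9 rose and 1 fell (median 1.94). Gsr, glutathione reductase, rose from 5.86 ± 3.59 to 118 ± 23.6 FPKM and the thioredoxin gene Txn1 from 88.8 ± 10.2 to 999 ± 132 FPKM. All 4 tested peroxidase genes rose (median 2.68), among them Prdx6, from 14.97 ± 10.3 to 198 ± 27.5 FPKM. Of 9 exporter and transporter genes 5 rose and 2 fell (median 1.19), the fall of Abcc5, which encodes an export pump, being 2.79 ± 0.34 on the log2 scale. Of 16 NRF2 regulators and other targets 10 rose and 1 fell (median 1.57), with the heme oxygenase gene Hmox1 going from 18.3 ± 14.8 to 839 ± 368 FPKM. With length and GC trends removed, 5 synthesis and breakdown, 3 peroxidase, 2 export and 7 NRF2 genes were higher, and 2 NRF2 genes were lower. Over all genes 1938 were higher and 2064 lower there. Under quantile normalization 5 synthesis and breakdown, 4 export and 9 NRF2 genes were higher. With library weights 5 synthesis and breakdown and 9 NRF2 genes were. The 9 reduction and redoxin genes stayed higher under these settings.

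Between MCAO+Ctrl-exos and MCAO limma called 0 of these 68 genes, beside 0.0738% of all genes. At an unadjusted p below 0.05 there were 11, beside 10.9% of all genes. Between MCAO+AS-exos and MCAO+Ctrl-exos 1 of the 68 passed, beside 0.286% of all genes. It was the dipeptidase gene Dpep2, which rose by 1.22 ± 0.25 on the log2 scale (adjusted p = 0.0438). The call was lost in 11 of the 16 fits that left out a library. Between MCAO+AS-exos and MCAO 4 of the 16 genes of the NRF2 list were lower, beside 5.08% of all genes. They were Mafg (-2.12 ± 0.41), which encodes a small Maf partner of NRF2, and the NRF2 regulator gene Keap1 (-1.51). The others were Srxn1 (-1.26 ± 0.34), the gene of sulfiredoxin, and Bach1 (-1.08 ± 0.31), which encodes a repressor at the same elements. Under quantile normalization 1 gene of this list was lower, beside 222 of all 10846 genes. With length and GC trends removed 1 was lower, beside 210. With library weights 8 were lower and 2 higher, beside 2817 and 1138. In that comparison Gclc, the catalytic subunit of the rate-limiting ligase, and Abcc10, an export pump gene, were also lower. The peroxidase gene Gpx3 and the glyoxalase gene Hagh were higher. Of the 68 genes 6 were lower and 2 higher, beside 5.08% and 1.06% of all genes. These 8 calls rest on single libraries: without MCAO+AS-exos replicate 2 or 3 limma called 0 of all genes in this comparison, and without replicate 1 it called 2, none of them lower. Of the 16 fits that left out a library, Mafg was lost in 3 and Bach1 in 12.

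The profiles nearest to Gstp1 were those of Tomm22 (0.23), the gene of a mitochondrial import receptor, and Ndufa8 (0.30), which encodes a subunit of respiratory complex I. Med10 (0.30), a Mediator subunit gene, came next. The mean absolute deviation of Gstp1 itself was only 0.42, and differences by this measure are small for genes that vary little. For Mgst3, with a deviation of 0.57, the nearest were Snapc5 (0.28), Mtch2 (0.32) and Use1 (0.32). For Gstp2 the nearest genes, Mkrn2 (0.87), Qpctl (0.91) and Btbd6 (0.92), differed from it by more than the nearest genes of any other tested member. The deviation of Gstp2 itself was 1.39.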

How the data were processed

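RNA of sorted CD45 and CD11b stained cells was sequenced in 16 libraries. Per the labels' protocols, amplified cDNA was made into transposon-based, circularized libraries. The submitters' processing notes name HISAT2, Bowtie2, RSEM 1.3.1 and the mouse build GRCm39.p6, without roles. The values deposited by the authors are read as FPKM; this unit is an inference from RSEM being named and from unequal totals, and TPM of a subset of genes is possible. The files hold no counts, so depth and counting error are unknown, and estimated fragments may be divided arbitrarily between close copies. Groups came from the sample titles.

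Here log2(FPKM + 1) was fitted with limma 3.58.1 in R 4.3.3 (trend and robust empirical Bayes, two-sided) in 1 model of 4 group means, for 10846 genes that reached 1 FPKM in 4 or more libraries. Adjustment (Benjamini-Hochberg) was over all of these, with a threshold of 0.05. The limma procedure was also run on simulated data with independent noise for each gene and library. Shifts shared by many genes of a library were not part of that run, which does not bear on them. In a second fit the rows of Gstp1 and Gstp2 were replaced by their sum. The members and gene lists were chosen with earlier results of these data known. All 9 members are named, with the 3 tested genes of the most similar profile. Of each list up to 3 genes with the smallest p are named, and in some places a further called gene. Promoters came from RefSeq (GRCm38.p6) and transcript sequences from a GRCm38 annotation, another build than the authors', so no coordinate was joined to their values. Equal replicate numbers did not pair libraries.

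Alternatives were a pseudocount of 0.1, no filter, a minimum of 5 FPKM, quantile normalization, scaled totals, removal of length and GC trends, no trend or robust step, a replicate block, library weights, a fit of the 8 libraries compared, and leaving out each library, or replicate 4 of MCAO+AS-exos together with replicate 1 of MCAO+Ctrl-exos.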

Additional observations from a re-analysis of the deposited data

Results flagged for a closer look

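In groups of 4, a library was marked when its gap to the nearest of the others exceeded Dixon's critical share of the group's range, which chance alone does in about 1 in 20 groups. Of the 35 groups examined 4 were marked, and 3 of these were MCAO+AS-exos replicate 4. That library had Gsto1 at 156.4 FPKM, with the other libraries of its group at 297 to 320 FPKM, and Gstm5 at 2.65 FPKM, with the others at 17.5 to 20.6 FPKM. It had Gstt1 at 17.06 FPKM, with the others at 0.26 to 0.78 FPKM. In MCAO+Ctrl-exos, Gstt1 was marked in replicate 3, at 0.29 FPKM, since the other libraries were listed at 0.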

How the results depend on the processing

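Between MCAO and Sham the 5 calls (Mgst1, Gsto1, Gstm1, Gstp2 and Gstm5) held under all alternatives that were run. So did the 1 call between MCAO+Ctrl-exos and MCAO, that of Gstp2. Mgst1 met the minimum only through the occluded groups, and that Gstp2 difference was known when the genes were chosen. Refits of the same libraries show how far calls depend on processing and are not independent evidence. Between MCAO+AS-exos and MCAO+Ctrl-exos the count of 0 became 3 with library weights, where 3266 of all 10846 genes were called. Without MCAO+AS-exos replicate 4 and MCAO+Ctrl-exos replicate 1 together it was 1, where 1089 of all 10710 genes were called. On leaving out single libraries it was 0 to 1, beside 1 to 1296 of all genes. Between MCAO+AS-exos and MCAO the count of 1 became 0 with a pseudocount of 0.1, beside 563 of all 10846 genes. It was 5 with library weights and 2 without that pair of libraries, beside 3955 of 10846 and 2145 of 10710 genes. On leaving out single libraries it was 0 to 2, beside 0 to 2024 of all genes. Between MCAO+AS-exos and Sham the count of 5 became 3 under quantile normalization and without trend and robust, beside 4401 and 4250 of all 10846 genes. On leaving out single libraries it was 3 to 6, beside 3466 to 4349 of all genes. The causes of these changes were not tested. The Mgst3 call there was lost with a pseudocount of 0.1 (adjusted p = 0.0503), no filter (0.0725), quantile normalization (0.0692), scaled totals (0.0679), length and GC trends removed (0.185), no trend or robust step (0.0549) and the 8 libraries fitted alone (0.0598).

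For that last comparison the summed Gstp1 and Gstp2 difference no longer passed with no filter (0.996), quantile normalization (0.61), scaled totals (0.85), length and GC trends removed (0.31), no trend or robust step (0.996), the pair of libraries left out (0.88) or the 8 libraries fitted alone (0.996), and ranged from 0.52 to 1.22 on leaving out single libraries. Between MCAO and Sham the sum reversed to -0.23 with length and GC trends removed and ranged from -0.15 to 0.55 on leaving out libraries; between MCAO+Ctrl-exos and Sham it ranged from 0.26 to 0.97 and passed in 1 case.

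Every other reversal was of a difference that had not passed. Between MCAO and Sham, Mgst3 became -0.045 under quantile normalization, -0.041 with length and GC trends removed and -0.015 with library weights, and Gstp1 became -0.32 with those trends removed. Leaving out single libraries gave -0.28 to 0.45 for Mgst3 and -0.24 to 0.45 for Gstp1. Between MCAO+Ctrl-exos and MCAO, Gstm1 became 0.049 under quantile normalization, and Mgst1 -0.12 with scaled totals and -0.013 with weights, with ranges of -0.27 to 0.19 and -0.20 to 0.36. Between the exosome groups Gstm5 became 0.033 with weights and 0.16 without the pair of libraries (range -0.71 to 0.15), and Mgst1 ranged from -0.031 to 0.41. Mgst1 ranged from -0.045 to 0.52 between MCAO+AS-exos and MCAO. Gstp2 between MCAO+AS-exos and Sham became -0.30 with length and GC trends removed, -0.011 with weights and -0.029 without the pair (range -0.29 to 0.85).

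With the replicate number as a block, all counts of called members stayed within 1.5 times those above; Gstm5 between MCAO+AS-exos and Sham (-1.75) then also passed (adjusted p = 0.0313), which made 6 calls there. It also passed with scaled totals (adjusted p = 0.0458), length and GC trends removed (0.0345), the 8 libraries fitted alone (0.0250) and in 3 fits that left out a library, and between MCAO+Ctrl-exos and Sham with the 8 libraries alone (0.0182). Correlations of residuals between equal-numbered libraries ran from -0.148 to 0.0923, so the numbers are not read as pairs. Unknown depth limits what can be said of Gstp2, Gstt1 and Gsta4, which lay near 0 in many libraries.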

Other observations

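Among transferase genes outside the 9, Gstp3, a further pi-class gene, and Gsta3, an alpha-class gene, were below the minimum for testing. Gstp3 was at 0.99, 0.69, 2.82 and 9.98 FPKM in MCAO+AS-exos and at most 0.64 FPKM in any other library. Gsta3 was at 0.54, 0.10, 0.39 and 4.79 FPKM in MCAO+AS-exos and at most 0.80 FPKM elsewhere. Both were highest in MCAO+AS-exos replicate 4, the library with the highest Gstt1.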
